A study of Mus musculus with 30 samples.

Results

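The transcripts of 10 NF-kB pathway genes were followed through inhibition of protein synthesis in 2 mouse cell lines. The genes were chosen by name, as the rows of the count table whose Ensembl identifier, without its version, maps to Nfkbia, Nfkbib, Nfkbiz, Bcl3, Tnfaip3, Nfkb1, Nfkb2, Rela, Relb or Icam1, and all 10 were found among 57186 identifiers. RNA was sequenced at 0, 1, 2, 5 and 48 h of cycloheximide (CHX), an inhibitor of translation elongation, in 3 replicates (A, B and C) per line and time, which gave 30 libraries in 10 groups. The fibroblast line NIH/3T3 was kept in DMEM with fetal bovine serum. The embryonic stem cells of line CGR8 were kept in N2B27 with 2i/LIF, which holds them in the naive state. All 10 groups share the genotype ROSA26 SLT knock-in, so no group lacks it, and the dose was 0.1 µg/mL. The labels repeat that dose for the 0 h samples, which serve as the starting point of their line. No group without CHX was sampled at the later times, so CHX and time in culture cannot be told apart. The stated question was the early response of the transcriptome to CHX, with each time compared with 0 h. Nothing in the labels says that the replicates were separate cultures, so p-values measure only the spread between these samples.

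NF-kB is a family of dimers built from the subunits RelA, RelB, c-Rel, p50 (from Nfkb1) and p52 (from Nfkb2). In resting cells IkB proteins such as IkBα (Nfkbia) and IkBβ (Nfkbib) hold the dimers in the cytoplasm, and kinase-triggered degradation of IkB releases them to the nucleus. IkBα and A20 (Tnfaip3) are products of NF-kB target genes that shut the pathway down again, and because IkBα is short-lived, block of its synthesis by CHX is a known way to activate NF-kB.

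The sequences most tied to this feedback are the kB sites in the promoters of the genes. The classical kB consensus was searched on both strands in windows from 250 bases before to 50 bases after each annotated start, in the mouse promoter table of RefSeq (GRCm38.p6). The consensus has 10 letters, which are GGG, a purine, 2 bases of any kind, 2 pyrimidines and CC. The table held 7 of the 10 genes, with 10 promoters, and Nfkb1, Relb and Nfkbiz had no entry. The consensus was matched in 4 of those 7 genes, against 9.55% of the 27025 genes and 8.46% of the 32851 promoters in the table. The 4 windows are shown because these genes carry matches beside their start, and capitals mark the matches, which may overlap.
Nfkbia promoter, chr12:55492598-55492897, minus strand: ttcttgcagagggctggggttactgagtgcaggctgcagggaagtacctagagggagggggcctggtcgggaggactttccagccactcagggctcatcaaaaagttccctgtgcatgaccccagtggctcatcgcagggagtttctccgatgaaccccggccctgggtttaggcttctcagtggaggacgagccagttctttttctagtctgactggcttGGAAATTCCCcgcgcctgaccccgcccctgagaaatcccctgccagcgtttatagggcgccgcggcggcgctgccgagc
Tnfaip3 promoter, chr10:19015361-19015660, minus strand: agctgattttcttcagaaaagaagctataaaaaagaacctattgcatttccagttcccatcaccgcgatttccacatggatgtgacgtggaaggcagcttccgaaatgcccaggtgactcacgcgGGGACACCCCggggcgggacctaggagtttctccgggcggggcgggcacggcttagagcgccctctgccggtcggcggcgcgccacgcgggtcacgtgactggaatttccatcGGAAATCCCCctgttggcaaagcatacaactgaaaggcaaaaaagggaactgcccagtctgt
Nfkb2 promoter, chr19:46304487-46304786, plus strand: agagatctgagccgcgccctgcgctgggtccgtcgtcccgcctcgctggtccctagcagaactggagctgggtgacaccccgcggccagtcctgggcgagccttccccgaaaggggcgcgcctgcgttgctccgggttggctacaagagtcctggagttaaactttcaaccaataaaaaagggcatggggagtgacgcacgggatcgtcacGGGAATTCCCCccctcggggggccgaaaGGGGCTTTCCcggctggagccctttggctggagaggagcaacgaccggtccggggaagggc
Bcl3 promoter, chr7:19822706-19823005, minus strand: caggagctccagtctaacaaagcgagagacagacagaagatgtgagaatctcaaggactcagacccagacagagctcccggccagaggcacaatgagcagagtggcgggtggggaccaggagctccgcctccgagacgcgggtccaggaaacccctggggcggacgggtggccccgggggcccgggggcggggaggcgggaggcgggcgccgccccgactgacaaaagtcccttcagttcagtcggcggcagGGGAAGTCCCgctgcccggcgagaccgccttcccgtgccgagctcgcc
The match in Nfkbia began 29 bases before the start and that in Bcl3 at base 3 after it. Tnfaip3 had matches at 125 and 12 bases before its first start, and Nfkb2 had 3 at 39, 38 and 11 bases before the start shown. These letters were not in the windows of Nfkbib, Icam1 or Rela. A match is a string of letters and not a measured binding site. The consensus is strict, so a window without a match can still hold a kB site.

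Libraries held 18.2 to 30.5 M counts. Each library was compared with all others of its line over the 500 genes of highest variance, and for 4 of the 30 libraries the nearest one was not in their own group. NIH/3T3 1 h C and NIH/3T3 2 h A were each other's nearest library, as were CGR8 0 h B and CGR8 2 h A. Some of the results that use them are also given without both libraries of the line, and the others are given only with them. Stem cell markers summed to 5259 to 7138 CPM (a gene's counts per 1 M counts of its library) in CGR8 and to 88.7 to 154 in NIH/3T3. Fibroblast markers summed to 4080 to 10618 CPM in NIH/3T3 and to 4.38 to 7.48 in CGR8, although the NIH/3T3 libraries had at most 0.0932 CPM of Thy1 and 0.816 of Dcn. The genes of macrophages and other blood cells, where Icam1 and Bcl3 are also known, summed to at most 13.9 CPM in any library. Endothelial markers, of cells also known for Icam1, summed to 75.5 to 112 CPM in CGR8 and 1.23 to 2.78 in NIH/3T3. In CGR8 4 of the 6 reached 1 CPM, most of the sum was Pecam1 (69.1 to 98.8 CPM), Cdh5 was at most 0.0519 and Emcn was at 0. Primitive endoderm and trophectoderm markers summed to 6.81 to 32.3 CPM in CGR8. The part of such cells in the results was not tested.

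Before CHX the lines differed in which NF-kB genes they held. CGR8 had the B-cell lymphoma gene product Bcl3, a nuclear IkB that joins p50 and p52 on DNA, the adhesion receptor Icam1 and the non-canonical subunit Relb. NIH/3T3 had far more of the subunits Nfkb2, Nfkb1 and Rela and of the inducible regulators Nfkbiz and Tnfaip3. In edgeR's quasi-likelihood test 9 of the 10 genes differed between the lines at 0 h at an adjusted p under 0.05 (Benjamini-Hochberg, over all genes), where 79.1% of all genes tested differed. Bcl3 and Icam1 passed the filter on low counts only through CGR8, so they had to differ. Of the 8 genes with counts in both lines 7 were called, 2 higher and 5 lower in CGR8. The fit took all 30 libraries with TMM scaling.

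Levels per kb use all annotated exons of a gene merged, which can be longer than its transcript, so the order depends on this length. Nfkb1 had 12061 such bases and 88.8 CPM in NIH/3T3 at 0 h, Rela 3072 bases and 76.3 CPM. Per kb of exon, Rela stood highest in NIH/3T3, at 24.8 ± 3.30 CPM per kb (SD, n = 3). Nfkbib (13.0 ± 1.91), Nfkb2 (12.7 ± 1.09) and Nfkbia (12.3 ± 0.568) followed and overlapped one another in CPM per kb. Below them came Nfkb1 at 7.36 ± 0.0709, Relb at 1.65 ± 0.0661, Nfkbiz at 1.29 ± 0.0860 and Tnfaip3 at 0.301 ± 0.0747 CPM per kb, and none of these neighbours overlapped. Icam1 and Bcl3 were at the edge of detection in NIH/3T3, with 0 to 3 counts per library at 0 h. Over the whole time course no NIH/3T3 library had more than 5 counts of Bcl3 or more than 3 of Icam1, and Icam1 had 0 counts in all the 5 h and 48 h libraries, which allows up to 3 counts in each (counting error only).

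In CGR8 the order was different. Bcl3 (19.0 ± 1.92 CPM per kb) and Nfkbib (18.2 ± 2.03) stood highest and overlapped, followed by Nfkbia at 14.2 ± 0.744. Rela (10.3 ± 0.583) overlapped Relb (9.22 ± 0.767), and Relb overlapped Icam1 (8.59 ± 0.546), in CPM per kb. Nfkb1 lay at 2.72 ± 0.163, Nfkb2 at 2.02 ± 0.182, Nfkbiz at 0.207 ± 0.0736 and Tnfaip3 at 0.0902 ± 0.0349 CPM per kb.

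**Figure D1:**
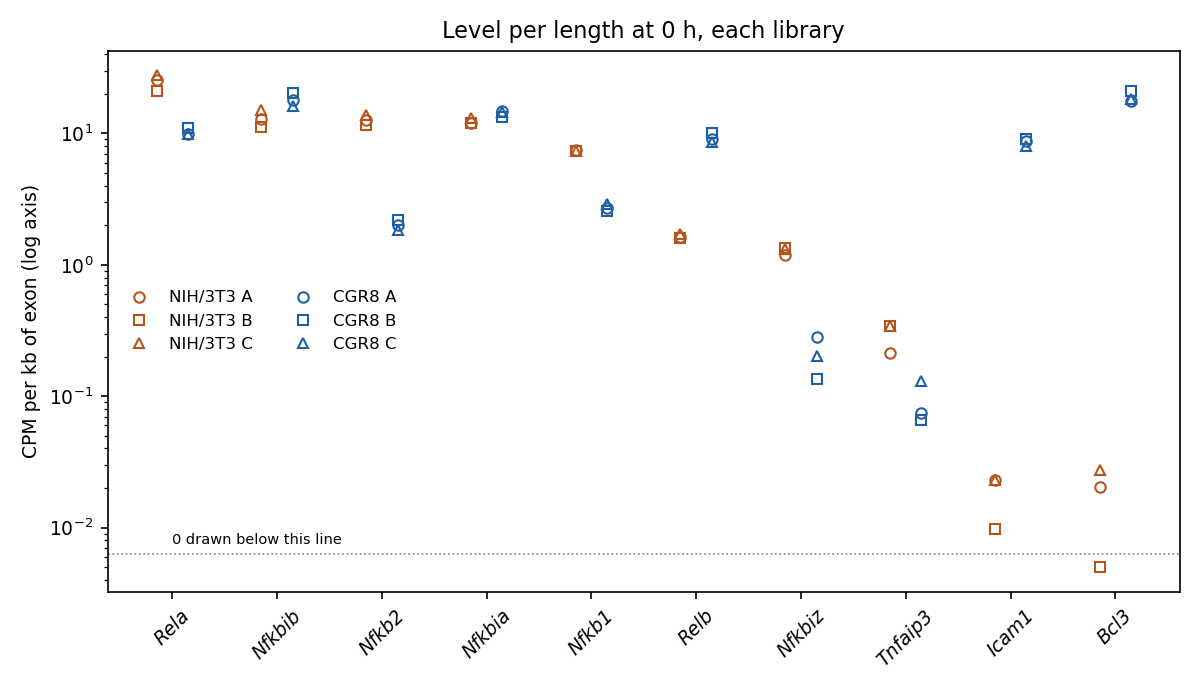
Level of the 10 genes at 0 h as CPM per kb of exon on a log axis, with 1 marker per library (orange NIH/3T3, blue CGR8) and genes in the order of their NIH/3T3 mean; a library at 0 is drawn below the dotted line. Icam1 and Bcl3 were nearly absent from NIH/3T3 and at 8.59 and 19.0 CPM per kb in CGR8. Nfkb2 was at 12.7 CPM per kb in NIH/3T3 and 2.02 in CGR8.

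As log2 differences at 0 h, CGR8 minus NIH/3T3, Nfkb2 was lower by -2.65 (SE 0.14, edgeR adjusted p 3.6e-16) and Nfkbiz by -2.60 (SE 0.48, p 1.6e-05). Tnfaip3 was lower by -1.77 (SE 0.30), Nfkb1 by -1.44 (SE 0.11) and Rela by -1.27 (SE 0.14). Relb was higher in CGR8 by 2.48 (SE 0.12, edgeR adjusted p 1.4e-17) and Nfkbib by 0.48 (SE 0.15, p 0.00548). No fold is given for Bcl3 and Icam1 because of their few NIH/3T3 counts. Nfkbia was the gene that was not called, with a difference of 0.21 (SE 0.10, edgeR adjusted p 0.0506). That value sits at the threshold: it was 0.29 under DESeq2 (p 0.00303), 0.25 under voom (p 0.00335) and 0.33 without the CGR8 libraries 0 h B and 2 h A (p 0.00416), all called.

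Over the hours of CHX part of the group changed in each line, at different times and in both directions. Without an untreated group at the later times, these changes cannot be assigned to CHX rather than to time in culture. In NIH/3T3 8 of the 10 genes had enough counts to be tested. Tnfaip3 was the gene called at 1 h and had the largest change. An early rise of Nfkbiz was not called in the main fit, where the libraries that stood apart were below 0 h. It was called when both were left out. Nfkbia rose to 5 h and was back at 48 h, Relb climbed to 48 h and Nfkbib fell to 48 h. In CGR8, where all 10 were tested, Icam1 rose to 5 h while Bcl3, Tnfaip3 and the subunit genes Rela, Relb, Nfkb1 and Nfkb2 fell, and at 48 h Nfkbia and Tnfaip3 stood above their 0 h level. In bulk RNA fewer cells with a transcript and less of it per cell cannot be told apart.

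The counts are read against the share of all genes called in the same comparison, and from 2 h on most were near it. In NIH/3T3 the calls against 0 h were 1 of 8 at 1 h (1 higher), where 0.732% of all genes tested were called. At 2 h they were 3 of 8 (2 higher, 1 lower; background 35.0%), at 5 h 5 of 8 (3 higher, 2 lower; background 51.0%) and at 48 h 5 of 8 (3 higher, 2 lower; background 52.3%). In CGR8 none of 10 was called at 1 h by edgeR (background 0.270%), although 3 had an unadjusted p under 0.05 and DESeq2 and voom each called 2. At 2 h 2 of 10 were called (1 higher, 1 lower; background 19.9%), at 5 h 7 of 10 (1 higher, 6 lower; background 52.1%) and at 48 h 4 of 10 (3 higher, 1 lower; background 27.8%). The 6 of 10 lower at 5 h in CGR8 stand beside 27.2% of all genes called lower, and the median change of the 10 genes there was -0.49 against -0.01 for all genes. The 5 calls of NIH/3T3 at 48 h dropped to 2 or 3 whenever any 1 of the 6 libraries was left out, and those at 5 h to 3 without 5 h B. Leaving out NIH/3T3 0 h A, 0 h C, 1 h A or 1 h B ended the 1 h call. The 2 h calls rose to 5 in NIH/3T3 without NIH/3T3 2 h A and to 4 in CGR8 without CGR8 2 h A.

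**Figure D2:**
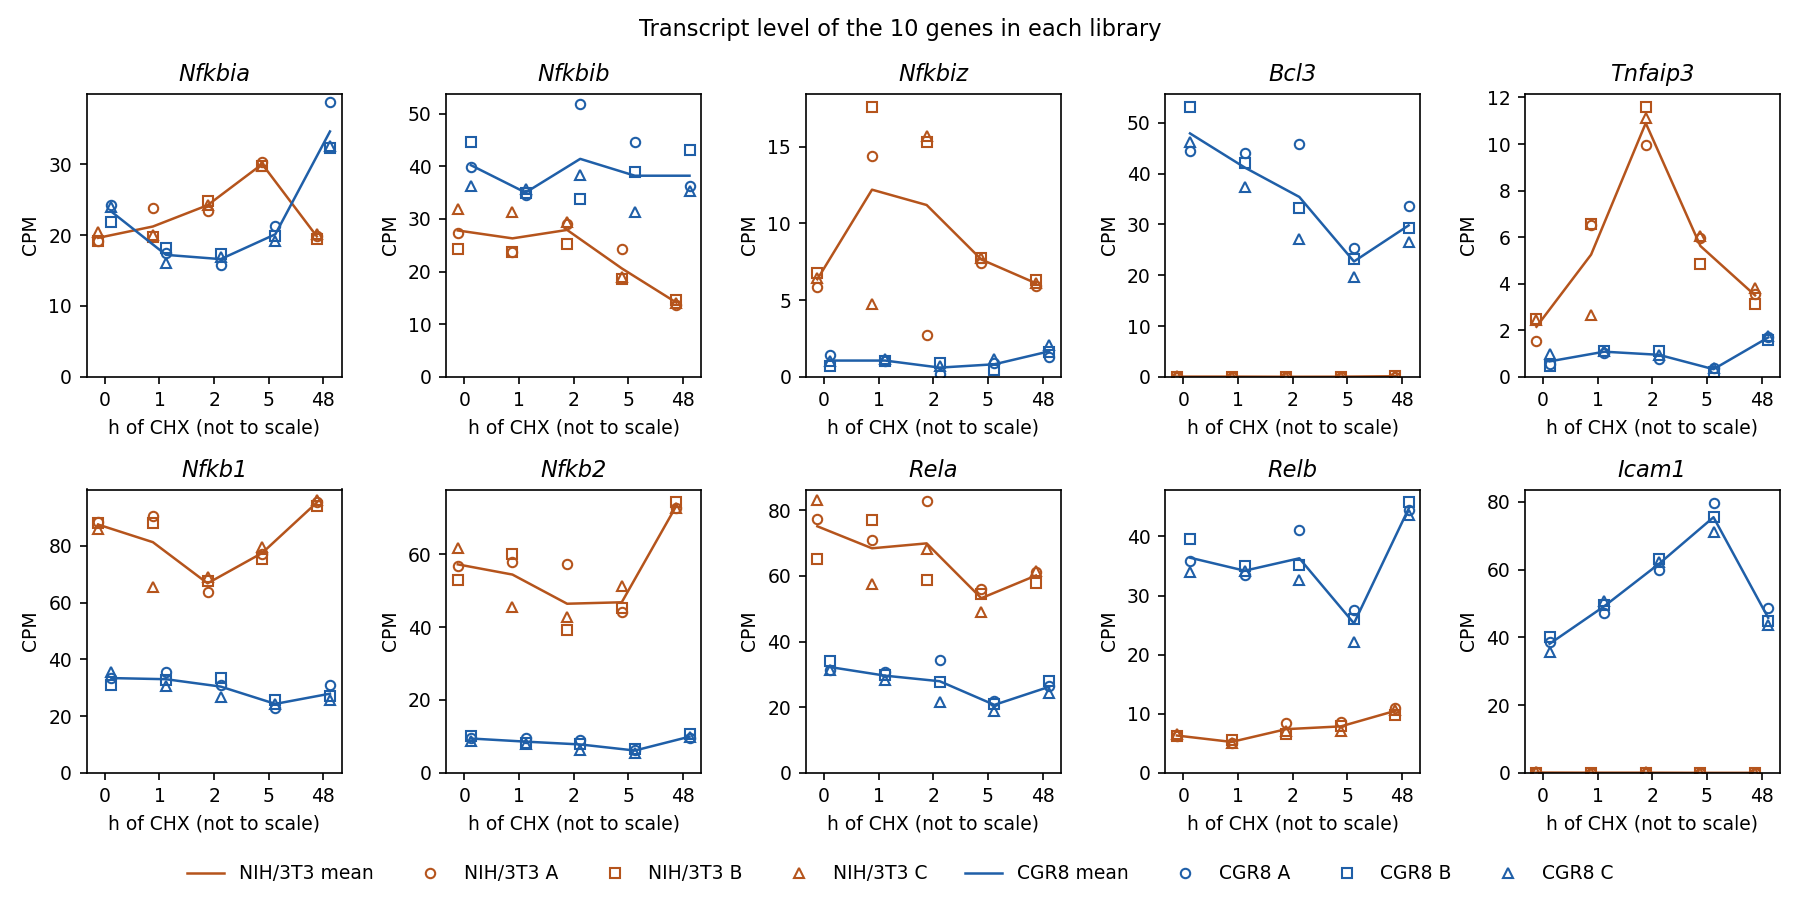
CPM of each gene in each library (circle A, square B, triangle C; orange NIH/3T3, blue CGR8; the lines join group means), with TMM scaling within the line, against hours of CHX, which are not spaced to scale. Nfkbia took opposite courses in the lines, Tnfaip3 peaked at 2 h in NIH/3T3, Icam1 peaked at 5 h in CGR8, and NIH/3T3 1 h C and 2 h A lay apart for Nfkbiz.

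Nfkbia encodes IkBα, the inhibitor that NF-kB itself induces. In NIH/3T3 libraries A, B and C it was at 19.1, 19.2 and 20.4 CPM at 0 h, 23.8, 19.7 and 20.0 at 1 h, 23.4, 24.8 and 24.3 at 2 h, 30.3, 29.8 and 29.8 at 5 h, and 19.9, 19.5 and 20.1 at 48 h. From 2 h to 5 h every library was above every 0 h library, and at 48 h the groups overlapped again. The change was 0.30 at 2 h (log2, SE 0.09, edgeR adjusted p 0.0153), 0.61 at 5 h (SE 0.09, p 3.2e-05) and 0.02 at 48 h (SE 0.09, p 0.891), and the return from 5 h to 48 h was -0.60 (SE 0.09, p 1.8e-05). The 2 h call was lost without 0 h A (p 0.0608) and with no filter on low counts (p 0.105).

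In CGR8 Nfkbia went the other way first. Libraries A, B and C were at 24.2, 21.8 and 24.0 CPM at 0 h, 17.4, 18.2 and 16.1 at 1 h, 15.7, 17.3 and 16.9 at 2 h, 21.3, 19.9 and 19.1 at 5 h, and 38.8, 32.3 and 32.6 at 48 h. All libraries of 1, 2 and 5 h were below those of 0 h and all of 48 h were above. The change was -0.44 at 1 h (log2, SE 0.11, edgeR adjusted p 0.127; DESeq2 adjusted p 0.0154), -0.49 at 2 h (SE 0.11, edgeR p 0.00608), -0.22 at 5 h (SE 0.11, p 0.0982) and 0.57 at 48 h (SE 0.10, p 0.00078). The 2 h call was lost in a fit of only the groups compared (p 0.0524). From 5 h to 48 h it rose by 0.78 (SE 0.11, edgeR adjusted p 1.6e-05).

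Nfkbib, the IkBβ gene, which unlike that of IkBα is not known for induction by NF-kB, fell late in NIH/3T3. Its libraries were at 27.3, 24.3 and 31.8 CPM at 0 h, 24.2, 18.5 and 19.0 at 5 h, and 13.6, 14.6 and 14.0 at 48 h. The 48 h libraries were all well below the others, with a change of -0.98 (log2, SE 0.14, edgeR adjusted p 2.3e-05), and at 5 h it was -0.43 (SE 0.14, p 0.0135). The 5 h call was lost without 0 h C (p 0.105), 5 h B (0.07) or 5 h C (0.0578). In CGR8 the group means of Nfkbib were 35.0 to 41.4 CPM and no time was called against 0 h. Reads of Nfkbib could include opposite-strand Sirt2 and Ccer2, whose exons cover 42 and 314 of its 2169 exon bases, since the use of strand in counting is not given in the sources used here.

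Tnfaip3 encodes A20, a ubiquitin-editing enzyme that ends signalling from TNF and IL-1 receptors. In NIH/3T3 it was at 1.53, 2.47 and 2.43 CPM at 0 h, 6.52, 6.58 and 2.66 at 1 h, 9.97, 11.6 and 11.1 at 2 h, 5.97, 4.85 and 6.04 at 5 h, and 3.57, 3.13 and 3.80 at 48 h. Every treated library was above every 0 h library, and only 1 h C, a library that stood apart, came near them. The change was 1.29 at 1 h (log2, SE 0.26, edgeR adjusted p 0.0265), 2.33 at 2 h (SE 0.25, p 9.1e-06) and 1.37 at 5 h (SE 0.26, p 0.00045). The fall from 2 h to 5 h was -0.96 (SE 0.23, p 0.00634), and at 48 h the level was still 0.68 above 0 h (SE 0.28, p 0.0488). The 1 h call was lost without 0 h A (p 0.183), 0 h C (p 0.101), 1 h A (p 0.124) or 1 h B (p 0.126). It was also lost with library size alone (p 0.0644) and in a fit of only the groups compared (p 0.519). The 48 h call was lost when any 1 of the 6 libraries was left out (p 0.0601 to 0.173) or with the replicate block (p 0.0646).

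In CGR8 Tnfaip3 was a low-count gene, with 4 to 47 counts per library. Its mean was 0.664 ± 0.260 CPM at 0 h (SD, n = 3) and 1.08 ± 0.0423 after 1 h. It was then 0.946 ± 0.179 CPM at 2 h, 0.328 ± 0.114 at 5 h and finally 1.69 ± 0.106 at 48 h. The 5 h libraries lay below and the 48 h libraries above all 0 h libraries. The changes were -0.97 at 5 h (log2, SE 0.34, edgeR adjusted p 0.0247) and 1.35 at 48 h (SE 0.26, p 0.00123), and from 5 h to 48 h 2.32 (SE 0.30, p 1.2e-05). The 5 h call was lost without 0 h C (p 0.188), without 5 h B (p 0.104) and under DESeq2 (p 0.0591), whereas the 48 h call held under every alternative run.

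Nfkbiz encodes IkBζ, an inducible nuclear cofactor of p50, and is the gene on which the libraries that stood apart bear most. In NIH/3T3 it was at 5.87, 6.74 and 6.47 CPM at 0 h, 14.4, 17.6 and 4.77 at 1 h, 2.72, 15.3 and 15.7 at 2 h, 7.45, 7.74 and 7.76 at 5 h, and 5.90, 6.30 and 6.09 at 48 h. The low libraries at 1 h and 2 h, 1 h C and 2 h A, are those whose nearest library lay in the other group, and both were below every 0 h library while the other 4 were above. With them the changes were 0.95 at 1 h (log2, SE 0.44, edgeR adjusted p 0.426) and 0.84 at 2 h (SE 0.44, p 0.15) and were not called. With the same libraries they were called under voom with sample quality weights (1.26, p 9.7e-05, and 1.23, p 4.9e-05) and by edgeR with no filter on low counts (0.95, p 1.4e-07, and 0.84, p 1.3e-06). With no filter the changes were the same, and the calls came with an SE of 0.15 in place of 0.44, although the libraries spread as widely. Without both libraries the changes were 1.30 (p 3.0e-08) and 1.29 (p 4.9e-09). Without 1 h C alone the 1 h change was 1.31 (p 0.0679), and without 2 h A alone the 2 h change was 1.30 (p 0.00489).

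The immediate-early genes Egr1, Fos, Fosb and Atf3 were each lowest in C among the NIH/3T3 libraries of 1 h. In 2 h A, Egr1, Fos and Fosb were the highest of the 2 h libraries and Atf3 the lowest. Fos was at 7.46, 9.68 and 6.10 CPM in 1 h A, B and C and at 10.6, 8.04 and 8.86 in 2 h A, B and C. Fosb was at 4.99, 6.16 and 2.61 CPM and then 21.1, 14.6 and 14.2. Egr1 was at 586, 761 and 398 CPM in NIH/3T3 1 h A, B and C and at 749, 636 and 601 in 2 h A, B and C, against 108 to 124 at 0 h. Atf3 was lowest in 1 h C (7.48 CPM, others 10.7 and 10.3) and in 2 h A (26.4, others 44.4 and 50.9), yet above the 2.86 to 3.71 of 0 h. So both libraries had early-response transcripts above 0 h, while Nfkbiz was below it. The part of these libraries in the Nfkbiz result was not tested beyond leaving them out. In CGR8 Nfkbiz had 5 to 50 counts per library, at mean levels of 0.602 to 1.66 CPM, and was called between 5 h and 48 h (0.98, SE 0.38, edgeR adjusted p 0.0356). Leaving out 5 h A, 5 h B, 48 h B or 48 h C ended that call (p 0.064 to 0.14).

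Bcl3, whose product can activate transcription through p50 and p52, fell in CGR8. Libraries A, B and C were at 44.5, 53.1 and 46.2 CPM at 0 h, 45.9, 33.2 and 27.2 at 2 h, 25.3, 23.2 and 19.6 at 5 h, and 33.7, 29.2 and 26.5 at 48 h. All 5 h and 48 h libraries were below all 0 h libraries, and at 2 h the library that stood apart, 2 h A, was as high as 0 h. The change was -1.08 at 5 h (log2, SE 0.17, edgeR adjusted p 7.4e-05) and -0.68 at 48 h (SE 0.16, p 0.00527). At 2 h it was -0.44 (SE 0.16, p 0.0686), and without CGR8 0 h B and 2 h A it was -0.59 (p 0.0162). Antisense Gm16175 covers 161 of the 2475 exon bases of Bcl3.

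Among the Rel-family subunits Rela, the transactivating subunit of the canonical dimer, fell at 5 h in both lines. In NIH/3T3 it was at 77.3, 65.0 and 83.1 CPM at 0 h and 56.1, 54.5 and 48.9 at 5 h, and in CGR8 at 31.2, 34.0 and 31.3 and then 22.0, 21.1 and 18.9. The groups did not overlap in either line, and the changes were -0.50 (log2, SE 0.13, edgeR adjusted p 0.00447) and -0.64 (SE 0.14, p 0.00113). The difference between the lines was -0.05 (SE 0.20, p 0.975), which does not show that they responded alike. In NIH/3T3 Rela was still lower at 48 h (-0.32, SE 0.13, edgeR adjusted p 0.0472), a call lost when any of 0 h A, 0 h C or the 48 h libraries was left out (p 0.082 to 0.184) and with library size alone (p 0.131).

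Nfkb1 and Nfkb2 encode the precursors of p50 and p52. In NIH/3T3 Nfkb1 was at 88.4, 88.0 and 86.1 CPM at 0 h and 63.9, 67.6 and 68.9 at 2 h, all lower, a change of -0.39 (log2, SE 0.10, edgeR adjusted p 0.00746), and it was back at 95.5, 94.1 and 96.2 at 48 h. Nfkb2 was at 56.8, 53.0 and 61.7 CPM at 0 h and at 72.6, 74.3 and 72.8 at 48 h, all higher, a change of 0.36 (SE 0.13, edgeR adjusted p 0.0279). That call was lost in 5 of the 6 fits that left out 1 library (p 0.0603 to 0.106), the exception being 0 h C. At 2 h Nfkb2 was at 57.2, 39.2 and 42.8 CPM, with A, which stood apart, level with 0 h; the change was -0.30 (edgeR adjusted p 0.078) and without both NIH/3T3 libraries that stood apart -0.46 (p 3.9e-05).

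In CGR8 both precursor genes were lowest at 5 h. Nfkb1 went from 33.5, 31.1 and 35.5 CPM at 0 h to 22.8, 25.7 and 24.3 (-0.46, SE 0.11, edgeR adjusted p 0.00304). Nfkb2 went from 9.43, 10.2 and 8.62 CPM to 6.30, 6.62 and 5.44 (-0.62, SE 0.14, p 0.00201) and was at 9.50, 10.6 and 9.71 at 48 h. Neither gene overlapped its 0 h libraries at 5 h, and by 48 h Nfkb2 did. The opposite-strand genes Psd and AC114539.1 cover 299 and 531 of the 4584 exon bases of Nfkb2.

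Relb, the subunit of the non-canonical pathway, separated the lines. In NIH/3T3 it was at 6.22, 6.19 and 6.54 CPM at 0 h, 8.60, 7.91 and 7.06 at 5 h, and 11.0, 9.84 and 10.6 at 48 h. Every library of 5 h and 48 h was above 0 h, with changes of 0.31 (log2, SE 0.12, edgeR adjusted p 0.0341) and 0.73 (SE 0.12, p 7.9e-05). The 5 h call was lost without 0 h A, 0 h B, 5 h A or 5 h B (p 0.0811 to 0.135) and with no filter (p 0.162). In CGR8 Relb went from 35.9, 39.5 and 34.0 CPM at 0 h to 27.6, 26.0 and 22.2 at 5 h, all lower (-0.53, SE 0.11, edgeR adjusted p 0.000965), and to 44.5, 45.9 and 43.6 at 48 h. The 48 h libraries were all above 0 h, with a change of 0.29 (SE 0.11, p 0.0574) that was not called by edgeR but was under DESeq2 (p 0.029) and voom (p 0.000882), and of 0.36 (p 0.0239) without CGR8 0 h B and 2 h A. From 5 h to 48 h Relb rose by 0.82 (SE 0.11, p 1.6e-05).

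Icam1 encodes an adhesion receptor for leukocyte integrins and is a textbook NF-kB target. In CGR8 it was at 38.6, 40.0 and 35.6 CPM at 0 h, 47.1, 49.7 and 50.9 at 1 h, 59.8, 63.1 and 62.3 at 2 h, 79.7, 75.6 and 71.2 at 5 h, and 48.8, 44.9 and 43.6 at 48 h. No group of 1, 2 or 5 h overlapped 0 h or the group before it. The change was 0.37 at 1 h (log2, SE 0.09, edgeR adjusted p 0.127; DESeq2 p 0.0157), 0.70 at 2 h (SE 0.09, edgeR p 0.000166) and 0.99 at 5 h (SE 0.09, p 1.0e-06). It then fell by 0.72 from 5 h to 48 h (SE 0.09, p 8.1e-06), to 0.27 above 0 h (SE 0.09, p 0.0377), a call lost without 0 h A, 0 h C or any 48 h library (p 0.0582 to 0.144), with library size alone (p 0.0566) and with no filter (p 0.21). Antisense Gm47079 covers 511 of its 4360 exon bases.

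**Figure D3:**
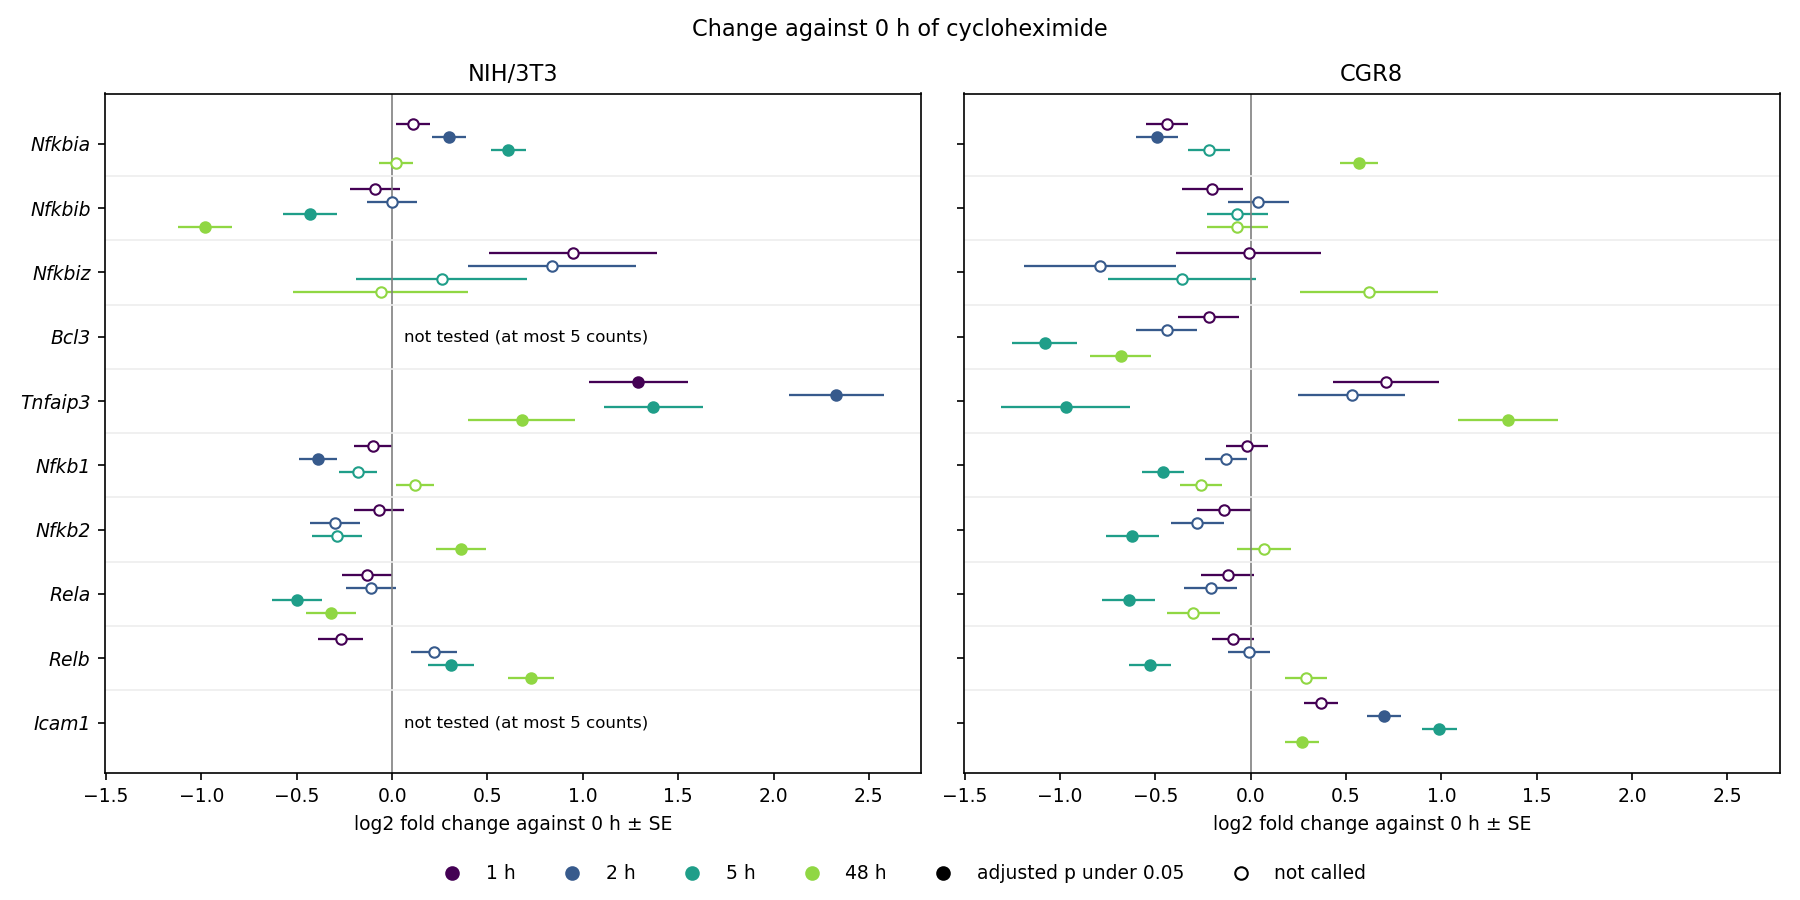
Log2 fold change against 0 h with its SE, from edgeR, for each gene at 1, 2, 5 and 48 h in NIH/3T3 (left) and CGR8 (right); filled points have an adjusted p under 0.05. The largest change in NIH/3T3 was Tnfaip3 at 2 h (2.33), and in CGR8 the 5 h points of Bcl3, Tnfaip3 and the 4 subunits lie left of 0 while Icam1 lies right.

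Between successive times, which share no 0 h libraries, genes of the group were called again after 2 h. From 5 h to 48 h the total called lay near the share of all genes. The steps from 2 h to 5 h and from 5 h to 48 h share the 5 h libraries with opposite sign, so their directions are not independent. In NIH/3T3 4 of 8 genes were called from 2 h to 5 h (1 higher, 3 lower), where 23.1% of all genes were called, and 6 of 8 from 5 h to 48 h (3 higher, 3 lower; background 65.6%). The 3 that rose from 5 h to 48 h were Nfkb2 (0.65, SE 0.13), Relb (0.41, SE 0.11) and Nfkb1 (0.30, SE 0.10), and the 3 that fell were Tnfaip3 (-0.69, SE 0.25), Nfkbia (-0.60) and Nfkbib (-0.55, SE 0.14). The fall of Tnfaip3 lost its call with library size alone (p 0.0579) and without 5 h A, 5 h C, 48 h A or 48 h B (p 0.0541 to 0.0828), and the rise of Nfkb1 without 5 h B (p 0.0536). In CGR8 5 of 10 were called from 2 h to 5 h (1 higher, 4 lower), where 19.1% of all genes were called and 11.2% were lower. From 5 h to 48 h 7 of 10 were called (6 higher, 1 lower), where 57.5% of all genes were called and 28.9% were higher. The CGR8 genes that rose from 5 h to 48 h were Tnfaip3, Nfkbiz, Relb, Nfkbia, Nfkb2 (0.70, SE 0.14) and Rela (0.34, SE 0.14, edgeR adjusted p 0.044), and Icam1 fell. The 4 calls of NIH/3T3 from 2 h to 5 h dropped to 2 without 2 h C, 5 h A or 5 h C and to 1 without 5 h B. The 5 of CGR8 dropped to 2 without 2 h A, to 3 without 2 h B, 5 h A or 5 h B, and to 0 in a fit of only the groups compared. In CGR8 Rela lost its rise from 5 h to 48 h under DESeq2 (p 0.0511), with RLE factors (p 0.0544) and with the filter at 5 CPM (p 0.0725), and without any 5 h library, 48 h A or 48 h B (p 0.0537 to 0.132).

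Whether the lines responded differently was tested directly, as the CGR8 change minus the NIH/3T3 change in 1 fit of all 30 libraries. None of the 10 genes was called at 1 h by edgeR (background 0.160%), where 1 had an unadjusted p under 0.05 and DESeq2 and voom each called 1, Nfkbia. At 2 h 2 of 10 were called (background 2.03%; 1 without NIH/3T3 0 h A, NIH/3T3 2 h B, CGR8 0 h C or CGR8 2 h C), at 5 h 4 of 10 (13.3%) and at 48 h 4 of 10 (21.9%). Icam1 is in the 5 h and 48 h counts but passed the filter only through CGR8 and had 0 NIH/3T3 counts at those times, so its call compares no 2 responses and is not read here. Of the 8 genes with counts in both lines 3 were called at 5 h and 3 at 48 h. The 48 h count over all 10 was 2 without NIH/3T3 0 h C.

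For Nfkbia the difference was -0.74 at 2 h (log2, SE 0.14, edgeR adjusted p 0.00131), -0.74 at 5 h (SE 0.13, p 0.00038) and 0.53 at 48 h (SE 0.13, p 0.00427). With no filter on low counts the 2 h value (-0.72, p 0.0506) and the 48 h value (0.56, p 0.0621) kept their signs but were not called. For Tnfaip3 it was -1.74 at 2 h (SE 0.42, p 0.0216) and -2.24 at 5 h (SE 0.48, p 0.00206). For Relb it was -0.75 at 5 h (SE 0.16, p 0.00168) and -0.45 at 48 h (SE 0.16, p 0.0375), and for Nfkbib it was 0.89 at 48 h (SE 0.22, p 0.00358). The 2 h call of Tnfaip3 was lost without NIH/3T3 0 h A (p 0.0687), NIH/3T3 2 h B (p 0.0505), CGR8 0 h C (p 0.17) or CGR8 2 h C (p 0.05). The 48 h call of Relb was lost in 10 of the 12 fits that left out 1 library (p 0.0526 to 0.111), with no filter (p 0.269) and without CGR8 0 h B and 2 h A (p 0.105). For Nfkbiz the 2 h difference was -1.58 (SE 0.73, edgeR adjusted p 0.452). With no filter it was -1.57 with a smaller SE (0.34, p 0.00114), and without the NIH/3T3 libraries 1 h C and 2 h A it was -2.02 (p 0.00146). Library size alone in place of TMM moved the all-gene median of the 5 h difference by -0.19.

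**Figure D4:**
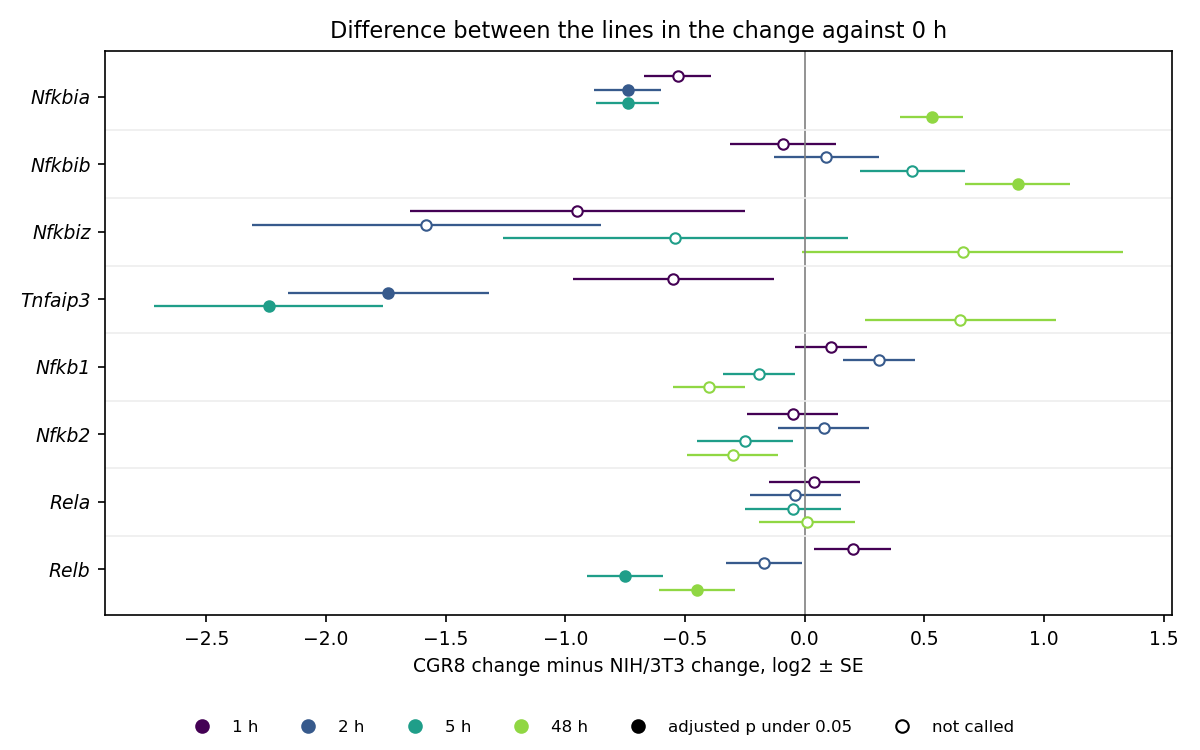
CGR8 change against 0 h minus NIH/3T3 change, log2 with its SE, for the 8 genes with counts in both lines; filled points have an edgeR adjusted p under 0.05. Nfkbia lies at -0.74 at 2 h and 5 h and at 0.53 at 48 h, and Rela stays within 0.05 of 0 at every time.

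The rest of the pathway was read from lists of further genes, grouped by role and tested in the same fits. Each count is set beside the share of all genes called in that comparison, and many lie near it. Among other IkB-family genes and inhibitors, 9 of the 18 tested in CGR8 were called at 5 h, where 52.1% of all genes were. Of the 9, 1 was higher and 8 lower (27.2% of all genes were lower), and the list's median change was -0.57 against -0.01 for all genes. Traf3, which restrains the kinase NIK, was at 26.9, 20.5 and 24.9 CPM at 0 h in CGR8 and 8.83, 11.2 and 11.9 at 5 h (-1.18, SE 0.15, edgeR adjusted p 1.7e-05). It also fell in NIH/3T3 at 5 h (-1.33, SE 0.12, p 6.2e-07). The RNase gene Zc3h12a fell in CGR8 at 2 h (-2.15, SE 0.22, edgeR adjusted p 2.7e-05), and Commd1, which promotes RelA turnover, rose at 5 h (0.95, SE 0.20). Cyld, a deubiquitinase, was higher in CGR8 at 48 h (0.37, SE 0.13, p 0.0358), but without CGR8 0 h B and 2 h A that was 0.31 (p 0.0963). In NIH/3T3 the same list had 7 of 16 called at 5 h (3 higher, 4 lower; all genes 51.0%) and 11 of 16 at 48 h (6 higher, 5 lower; all genes 52.3%). Tnip1, which partners A20, fell there at 5 h (-1.22, SE 0.12), and the largest rises at 48 h were Trim30a (3.52, SE 0.22) and the ubiquitin ligase gene Itch (0.74, SE 0.12).

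Of 32 receptors, adaptors and kinases in NIH/3T3, 15 were called at 2 h (8 higher, 7 lower; all genes 35.0%), 19 at 5 h (9 and 10; 51.0%) and 22 at 48 h (14 and 8; 52.3%). Map3k14 encodes NIK, the kinase of the non-canonical branch. It was at 24.7, 24.2 and 27.5 CPM at 0 h and 47.6, 63.8 and 66.0 at 2 h, all higher. The change was 1.22 (SE 0.19, edgeR adjusted p 0.000275), and 1.36 (p 4.5e-10) without NIH/3T3 1 h C and 2 h A. The interleukin-1 receptor gene Il1r1 rose at 5 h (1.17, SE 0.11), while Rbck1, of the linear ubiquitin ligase, fell at 5 h (-0.86, SE 0.10) and the TWEAK receptor gene Tnfrsf12a at 48 h (-1.22, SE 0.15). In CGR8 16 of 31 were called at 5 h (all genes 52.1%), 3 higher and 13 lower (27.2% of all genes were lower), with a median of -0.34 against -0.01. Tab1, a partner of the kinase TAK1, fell at 5 h (-1.09, SE 0.14) and the TNF receptor gene Tnfrsf1b at 48 h (-2.20, SE 0.21). Traf2 rose at 5 h (0.68, SE 0.14) and Sharpin at 48 h (0.58, SE 0.13).

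Of the ubiquitin machinery that degrades IkB, 10 genes were tested. In NIH/3T3 4 were higher and 1 lower at 2 h, where 35.0% of all genes were called (16.1% higher, 18.9% lower). At 5 h 5 were higher and 1 lower (all genes 51.0%, with 24% higher and 27.1% lower). At 48 h 5 were lower and 0 higher (all genes 52.3%, with 26.7% higher and 25.6% lower). Ube2d3 (0.49, SE 0.09) and Cul1 (0.48, SE 0.12) rose at 5 h, and Cdc34 (-1.04, SE 0.15) and Skp1a (-0.83, SE 0.14) fell at 48 h. In CGR8 3 were higher and 1 lower at 5 h (all genes 52.1%), with Rbx1 (0.85, SE 0.13) and Skp1a (0.59, SE 0.11) higher and Ube2d1 lower (-0.68, SE 0.10). At 48 h 1 was lower (all genes called 27.8%), Ube2d2a (-0.29, SE 0.09, edgeR adjusted p 0.0253), which lost the call without CGR8 0 h B and 2 h A (p 0.0799). The remaining subunit gene, Rel, which encodes c-Rel, was the 1 gene of its list. Its log2 change was -1.19 at 5 h in CGR8, where it was called. Its mean there was under 5 CPM at both 0 h and 5 h, below the level set for naming genes. At no time was Rel called in NIH/3T3.

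Of 40 chemokine, cytokine and other target genes, 24 had enough counts in NIH/3T3 and 17 in CGR8. In NIH/3T3 10 were higher and 5 lower at 2 h, where 35.0% of all genes were called (16.1% higher, 18.9% lower). At 5 h 9 were higher and 9 lower (all genes called 51.0%). At 48 h 6 were higher and 11 lower (all genes 52.3%, with 26.7% higher and 25.6% lower). Gadd45b, a stress-response gene, was at 10.6, 10.5 and 12.3 CPM at 0 h, 60.9, 49.8 and 47.8 at 5 h (2.24, SE 0.13, edgeR adjusted p 3.9e-09), and 4.43, 4.59 and 4.69 at 48 h (-1.29, SE 0.14). The chemokine gene Cxcl1 was at 1.92, 1.11 and 1.71 CPM at 0 h and 1.36, 9.56 and 10.4 at 2 h, so that the low library was 2 h A, as for Nfkbiz. Its change was 2.19 (SE 0.51, p 0.00425) with that library and 2.67 (p 1.3e-09) without it and 1 h C. Tnfsf9 fell at 5 h (-1.46, SE 0.13). In CGR8 5 were higher and 4 lower at 5 h (52.1%), and 3 higher and 6 lower at 48 h (27.8%). Cflar (1.38, SE 0.26), which encodes the caspase-8 inhibitor c-FLIP, and the cytokine gene Lif (1.21, SE 0.21) rose at 48 h, in cells grown with LIF protein in the medium. Tapbp fell at 5 h (-0.81, SE 0.16) and Bcl2l1 at 48 h (-0.75, SE 0.13).

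**Figure D5:**
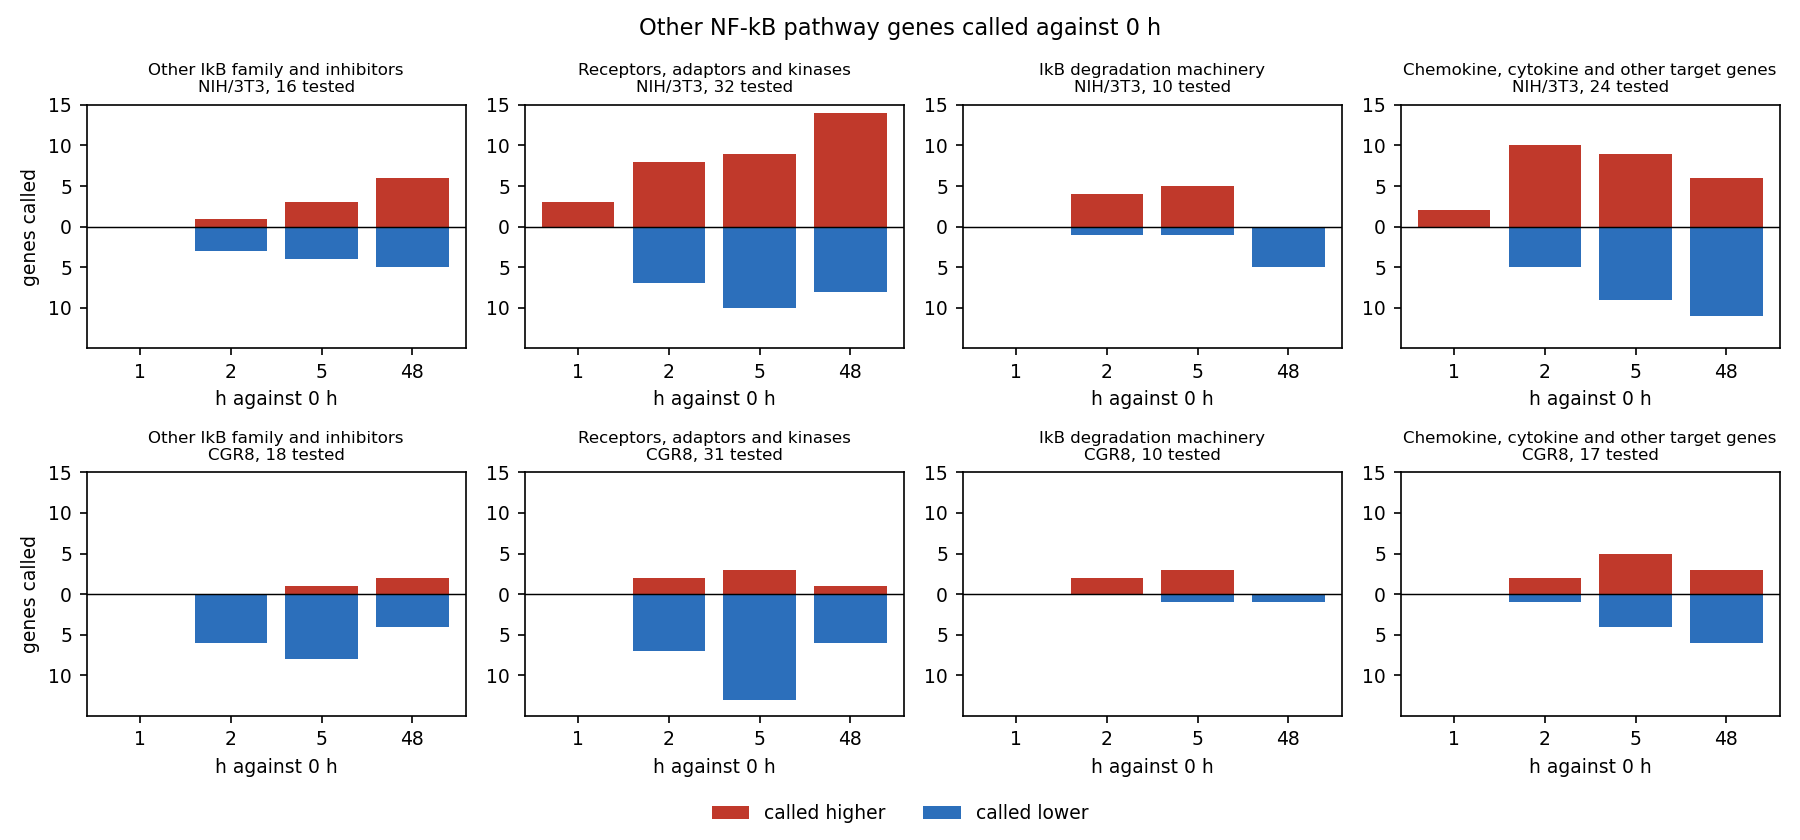
Number of further pathway genes called against 0 h by edgeR in 4 role lists at 1, 2, 5 and 48 h, with bars above 0 for genes called higher and below for genes called lower; the top row is NIH/3T3 and the bottom row CGR8. In CGR8 at 5 h receptors, adaptors and kinases had 3 higher and 13 lower, and the other inhibitors 1 higher and 8 lower.

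Time courses like those of the members were looked for over the 10 group means, each centred on the mean of its line, among 4860 genes called against 0 h in both lines. The pattern of Nfkbia was most like that of Arcn1 (Pearson r 0.906), March5 (0.890) and Khdrbs1 (0.856). Tnfaip3 was most like Ell2 (r 0.933), Nrf1 (0.897) and Klf6 (0.883), and Relb most like Klhl22 (0.897), Unk (0.857) and Sirt6 (0.852). These are descriptions of 10 points that share their libraries and scaling. Picking the highest of 4860 genes tends to give high r values by that choice. The CGR8 means of Tnfaip3 rest on 4 to 47 counts per library.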

How the data were processed

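RNA was measured in 30 libraries of 2 cell lines at 5 times of cycloheximide, 3 per group. The table that the authors deposited holds unnormalized counts of reads for each gene; its values were all whole and its column totals differed. Per the labels' protocols, RNA was purified with RNeasy columns and libraries were made with the Illumina stranded mRNA ligation kit. STAR, DESeq2 and the build GRCm39 are named in the submitters' processing notes. The counter, its use of strand and the annotation are not given in the sources used here. Symbols came from a reference table that matched 51880 of 57186 identifiers (90.7%) without their version; exon lengths and overlaps came from GENCODE M21 (GRCm38), and promoters from RefSeq (GRCm38.p6).

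Totals were 18.2 to 30.5 M counts, so genes with few counts are the least precise. Counts were fitted in R 4.3.3 with edgeR 4.0.16 (quasi-likelihood F test, TMM factors, genes kept by filterByExpr at count 10 and total 15), in 1 fit per line of 15 libraries, and in 1 fit of all 30 for differences between lines. P-values were adjusted over all genes (Benjamini-Hochberg) and called under 0.05. The SE is the log2 change divided by the square root of F. CPM use library totals times the factors of the line's fit (of the 30-library fit at 0 h per length), and marker sums use totals alone. No fold is given where a group had at most 5 counts in every library. The test was also run on simulated counts with known changes. That simulation held no libraries that stood apart and far fewer changed genes than were called here. It therefore cannot show how the test behaves under those conditions.

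The members, gene lists and tests were chosen with earlier results of these data known. All 10 members are named. From each list and line, the up to 2 genes with the largest called rise and fall against 0 h are named if the higher of the groups reached 5 CPM on average. Rel, alone in its list, is named although it was below that level. For likeness, the 3 genes of highest Pearson r of log2(CPM + 0.5) are named, among genes called against 0 h in both lines with at least 10 CPM in a group of each; Nfkbiz had no call against 0 h and was left out. Alternatives were RLE factors, library size alone, DESeq2 1.42.0, voom with quality weights in limma 3.58.1, other filters, a fit of only the groups compared, a block for the replicate letter, and leaving out single libraries. Leaving out both libraries of a line that stood apart was added after seeing the data.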

Additional observations from a re-analysis of the deposited data

Results flagged for a closer look

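The change over the hours of cycloheximide differed between the lines for some of the 8 genes with counts in both. These were 2 genes at 2 h, 3 at 5 h and 3 at 48 h. The direct test was edgeR's quasi-likelihood interaction, with values given as the CGR8 change minus the NIH/3T3 change on the log2 scale. Over all genes 2.03% were called at 2 h, 13.3% at 5 h and 21.9% at 48 h. Icam1 was called at 5 h and 48 h too, but had at most 3 NIH/3T3 counts, so its call is not read. Nfkbia differed by -0.74 at 2 h and by -0.74 at 5 h, when it rose in NIH/3T3 (0.30 and 0.61) and changed by -0.49 and, not called, -0.22 in CGR8, and by 0.53 at 48 h, when its mean was 34.6 CPM in CGR8 (23.3 at 0 h) and 19.8 in NIH/3T3 (19.6 at 0 h). Tnfaip3 differed by -1.74 at 2 h and -2.24 at 5 h, where the CGR8 side rests on 4 to 32 counts per library. Relb differed by -0.75 at 5 h and by -0.45 at 48 h, a call lost in 10 of the 12 fits that left out 1 library. Nfkbib differed by 0.89 at 48 h, when it was at 14.1 CPM in NIH/3T3 (27.8 at 0 h) and at 38.2 in CGR8 (40.2 at 0 h). With 3 libraries per group no test for a single outlying library was made.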

How the results depend on the processing

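No called change of a member reversed its direction under any alternative. The number of members called moved by over 1.5 times in these cases. In NIH/3T3 at 1 h, 1 became 0 with library size alone or with the compared groups alone, 2 with no filter or without both libraries that stood apart, and 3 under voom. At 2 h, 3 became 6 under voom or without both such libraries, and at 5 h, 5 became 8 with the compared groups alone. In CGR8 at 1 h, 0 became 2 under DESeq2 or voom; at 2 h, 2 became 1 with the compared groups alone; at 48 h, 4 became 7 under voom. From 2 h to 5 h in CGR8, 5 became 3 under voom, 0 with the compared groups alone and 2 without both libraries that stood apart, and from 5 h to 48 h 7 became 4 among genes of at least 5 CPM. For the line difference, 0 became 1 at 1 h under DESeq2 or voom, and 4 became 2 at 48 h with no filter. The cause of these moves was not tested. Filters change which genes are tested, and the SE moved with them. For Nfkbiz in NIH/3T3 at 1 h the change was 0.95 either way, with an SE of 0.44 in the main fit and 0.15 with no filter. For Icam1 in CGR8 at 48 h the SE was 0.09 in the main fit and 0.14 with no filter.

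Leaving out 1 library at a time gave, against 0 h in NIH/3T3, 0 to 1 calls at 1 h, 2 to 5 at 2 h, 3 to 4 at 5 h and 2 to 3 at 48 h, and 1 to 4 from 2 h to 5 h. In CGR8 it gave 2 to 4 at 2 h and 2 to 7 from 2 h to 5 h. For the line difference it gave 1 to 2 at 2 h and 2 to 4 at 48 h. The other counts stayed within 1.5 times.

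Whether the replicate letters pair the samples is not settled by these data. Deviations of same-letter libraries correlated with a median of 0.02 in either line. The range was -0.30 to 0.33 in NIH/3T3 and -0.58 to 0.42 in CGR8, and 3 of 30 and 9 of 30 pairs exceeded 0.1. A median near 0 cannot exclude pairing at some of the times. With the letter as a block (replicate block) 143 of the members' changes kept their side of the threshold, 4 gained a call and 1 lost it (Tnfaip3 at 48 h in NIH/3T3, 0.68, edgeR adjusted p 0.0646). Of the further pathway genes, the 5 called at 1 h in NIH/3T3 became 26 under voom, 3 with library size alone and 1 with the compared groups alone. In CGR8 the 0 called at 1 h became 12 under voom and 1 with no filter, the 20 at 2 h became 9 with the compared groups alone, and the 23 at 48 h became 43 under voom. Depth limits Tnfaip3 and Nfkbiz in CGR8 (4 to 50 counts per library) and Bcl3 and Icam1 in NIH/3T3 (at most 5).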
